A study of Mus musculus with 2 samples.

Results

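The Rab, sorting nexin (Snx), syntaxin (Stx) and Vamp genes are 4 gene families of membrane trafficking, and they were described here as 109 genes of the 22180 that the array measured with a probe set of their own. Members were taken by symbol: a gene counted when it was the only symbol of a probe set and its symbol was Rab, Snx, Stx or Vamp followed by digits and an optional letter. This gave 58 Rab, 30 Snx, 14 Stx and 7 Vamp genes. Where several probe sets named a member (8 genes), the one with the highest mean of both samples was kept.

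The samples were a pair of stable mouse embryonic stem cell lines, made in cells labelled Niwa, with 1 sample each. One line carried EWS-OCT4A-GFP, in which the EWS protein is joined to OCT4A, the pluripotency isoform of the transcription factor encoded by Pou5f1. The GFP control line carried GFP. Both grew with LIF under doxycycline (1 µg/ml), which turns down the OCT-4 of the cells themselves, so the control is a cell with lowered OCT-4 and no sample without doxycycline was analysed here. The promoter of the transgenes, the length of the treatment and whether a line was 1 clone are not given in the sources used here.

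Rab proteins are small GTPases that cycle between an active, membrane-bound form and an inactive form in the cytosol, and each marks a set of membrane compartments. Sorting nexins bind phosphoinositides through a PX domain and sort cargo on endosomes, and those with a BAR domain also bend the membrane into tubules. Syntaxins and Vamp proteins are SNAREs: a Vamp protein on the vesicle pairs with a syntaxin on the target membrane, and their zippering drives fusion. Epithelia, among them the trophectoderm of the embryo, use separate members for apical and basolateral delivery.

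The values are log2 summaries, and each difference below is EWS-OCT4A-GFP minus GFP control. With 1 sample per group there was no replicate, no test and no error for any single value. A member was called at least 2-fold higher or lower when its difference was at least 1 in size and the higher of its values reached 4.10, the median of the values of both samples. That floor is no detection limit, and how far a value near it lies above background is unknown. A probe set's level cannot be set against that of another gene as an amount of transcript. Differences are compared between genes, and levels only sort probe sets into those with lower and higher values.

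Markers of cell identity differed between the samples. Of 9 pluripotency markers, 8 were at least 2-fold higher in the EWS-OCT4A-GFP sample, and their mean value was 8.55 there against 5.39 in GFP control cells. Of 10 trophectoderm markers, 8 were at least 2-fold lower, with a mean of 4.77 in EWS-OCT4A-GFP cells against 7.87 in GFP control cells. Primitive endoderm markers were at least 2-fold lower in 4 of 8 cases, with a mean of 4.23 in EWS-OCT4A-GFP and 5.29 in GFP control cells. Of the fibroblast markers 1 of 8 was (Postn), with a mean of 3.69 in EWS-OCT4A-GFP and 4.20 in GFP control cells. That gap in means comes mostly from Postn, since the median difference of the 8 fibroblast markers was 0.008. The defining marker Nanog read 10.55 in EWS-OCT4A-GFP cells and 5.94 in GFP control cells, so the control cells, labelled as embryonic stem cells, read lower in that marker. Among markers that reached the floor, the largest differences in each list were those of Tdgf1 (6.04), Nanog (4.61) and Sox2 (4.37) for pluripotency and Krt18 (-6.37), Gata2 (-5.45) and Krt8 (-5.29) for trophectoderm. For primitive endoderm they were Dab2 (-2.65), Col4a1 (-2.62) and Gata6 (-2.21), and for fibroblasts Postn (-4.04), Col3a1 (-0.28) and Thy1 (0.10). Primitive endoderm markers within 2-fold were Sox7 (0.71), Gata4 (-0.115), Foxa2 (-0.21) and Sox17 (-0.23, under the floor in both samples). Trophectoderm markers within 2-fold were Cdx2 (-0.55) and Elf5 (-0.81). The EWS-OCT4A-GFP values of Postn and Gata6 lay under the floor. With them set to the floor the differences were -1.97 for Postn and -1.90 for Gata6. These marker differences lie between the same 2 samples as every difference described below, and their part in any of them cannot be told apart from that of the fusion itself, since each line is 1 sample. In RNA of a whole culture, fewer cells of a type and less RNA per cell cannot be told apart either.

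Trafficking genes mostly read lower in EWS-OCT4A-GFP cells. Of the 109 members, 82 had a difference below 0, against 46.1% of all 22180 genes, and 26 had one above 0. Rab42 read the same in both samples. The higher value reached the floor in 98 members and stayed under it in 11, which were 10 Rab genes and Stx19. At least 2-fold lower were 16 members (14.7%), against 7.25% of all genes, and 2 members (1.83%) were at least 2-fold higher, against 5.68% of all genes. Many genes on the array read low in both samples, so a second background was taken over the 12742 genes whose mean was at or above the floor. Of these, 12.0% were at least 2-fold lower, 9.16% at least 2-fold higher and 47.5% below 0. Of the 96 members whose mean reached the floor, 15 were at least 2-fold lower, a share near that second background. The shift of most members was smaller than 2-fold and is seen in the median. The median difference was -0.40 over the 109 members and 0.00 over all genes.

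By family, 41 of 58 Rab genes (70.7%), 23 of 30 Snx genes (76.7%), 12 of 14 Stx genes and 6 of 7 Vamp genes had a difference below 0. Median differences were -0.31 for Rab, -0.43 for Snx, -0.54 for Stx and -0.22 for Vamp genes. At least 2-fold lower were 6 Rab genes (10.3%), 6 Snx genes (20.0%), 3 Stx genes (21.4%) and 1 Vamp gene (14.3%). Of all genes 7.25% were, and 12.0% of those with a mean at or above the floor. With a mean of at least 6, 3 of 23 Rab, 4 of 18 Snx, 2 of 6 Stx and 0 of 3 Vamp genes were. The Rab share at that level (13.0%) was near the 13.8% of all such genes. The 2 members that were at least 2-fold higher were both Rab genes. Among the 50 members with a mean of at least 6, 43 were below 0 against 47.6% of the 6228 such genes on the array. Of those 50, 9 were at least 2-fold lower (background 13.8%) and 0 at least 2-fold higher (background 9.76%). At a size of 1.5-fold, 40 of the 109 members were lower, against 12.6% of all genes. With a mean of at least 6, 24 of the 50 members were lower by that size, against 1448 of the 6228 genes. Members and lists were chosen with results of these samples known, so the shares are descriptions of 2 samples.

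**Figure D1:**
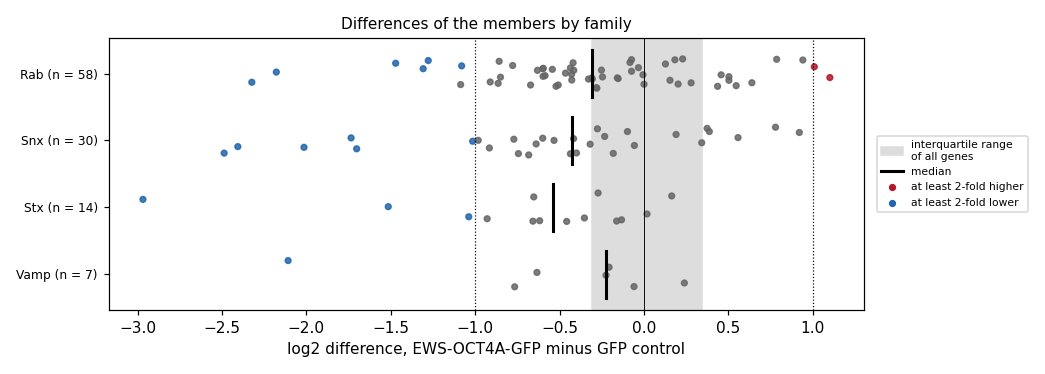
Differences of the 109 members by family, EWS-OCT4A-GFP minus GFP control in log2 units (x axis), with 1 point per gene. Black bars are family medians (-0.31, -0.43, -0.54 and -0.22), the grey band is the interquartile range of all 22180 genes (-0.31 to 0.34), dotted lines mark 2-fold, and points reach further to the left, down to -2.97, than to the right, up to 1.10.

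The members with the largest negative difference in each family that have an entry in the RefSeq promoter table (GRCm38.p6) were Rab15, Snx1, Stx3 and Vamp8. The 250 bases before the start of each are shown because these genes head the lower members with an entry in the 4 families. Snx9 (-2.49) had a lower difference than Snx1 (-2.41) but had no entry. They are written 5′ to 3′ on the gene's own strand, with matches to the motifs searched in capitals.

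Rab15 (chr12:76822525-76822774, minus strand): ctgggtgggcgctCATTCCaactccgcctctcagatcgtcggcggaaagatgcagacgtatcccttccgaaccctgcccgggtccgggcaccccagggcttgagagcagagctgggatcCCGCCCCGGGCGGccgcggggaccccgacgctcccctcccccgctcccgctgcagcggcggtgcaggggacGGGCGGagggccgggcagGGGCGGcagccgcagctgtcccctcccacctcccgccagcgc
Snx1 (chr9:66124887-66125136, minus strand): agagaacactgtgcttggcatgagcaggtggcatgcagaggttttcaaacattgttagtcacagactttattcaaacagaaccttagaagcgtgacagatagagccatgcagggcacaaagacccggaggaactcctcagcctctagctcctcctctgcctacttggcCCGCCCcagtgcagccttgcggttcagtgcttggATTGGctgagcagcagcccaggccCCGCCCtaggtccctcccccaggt
Stx3 (chr19:11819404-11819653, minus strand): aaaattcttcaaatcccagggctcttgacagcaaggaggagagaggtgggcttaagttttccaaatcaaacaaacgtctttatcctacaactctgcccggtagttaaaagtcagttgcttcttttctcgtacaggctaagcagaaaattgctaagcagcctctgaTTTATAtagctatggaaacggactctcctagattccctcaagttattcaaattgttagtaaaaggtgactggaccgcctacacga
Vamp8 (chr6:72390668-72390917, minus strand): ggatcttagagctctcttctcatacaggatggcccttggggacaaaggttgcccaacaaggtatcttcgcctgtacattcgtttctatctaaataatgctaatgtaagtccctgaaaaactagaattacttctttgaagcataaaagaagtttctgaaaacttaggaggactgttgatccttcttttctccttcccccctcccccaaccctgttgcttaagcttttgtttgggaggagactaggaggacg

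The motifs were AGATAA for GATA factors, GCCNNNGGC for AP-2 factors, GGAATG for TEAD factors, CACGTG for the E-box, CCAAT, the GC box GGGCGG and TATAAA, each on both strands. The Rab15 window, the first of 4 listed for that gene, held 4 GC boxes, 1 AP-2 motif that overlaps both GC boxes beside it, and 1 TEAD motif. Snx1 held 2 GC boxes and 1 CCAAT motif, Stx3 held 1 TATA motif, and Vamp8 held 0 matches. Base composition differed as well, with 75.2% G and C for Rab15, 56.4% for Snx1, 42.0% for Stx3 and 43.6% for Vamp8. No motif of this set was found in all 4 of these windows.

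Of the 109 members, 86 had a window in the table, which runs to 50 bases past the start, and 14 of the 16 lower members had 18 windows (Snx9 and Snx24 were not matched). The GC box was in 55.6% of the windows of lower members, in 69.4% of the 108 windows of all members and in 35.7% of all 32851 windows. AP-2 motifs were in 16.7% of the windows of lower members, 32.4% of those of all members and 16.6% of all windows. TEAD motifs were in 16.7% of the windows of lower members, 13.0% of those of all members and 14.7% of all windows. TATA motifs were in 16.7% of the windows of lower members, 6.48% of those of all members and 13.6% of all windows. For the CCAAT motif these shares were 38.9% for lower members, 42.6% for all members and 37.4% for all windows, and for the E-box 5.56% for lower members, 10.2% for all members and 7.15% for all windows. The GATA motif was in 0 of the 18 windows, against 5.56% of the windows of all members and 11.2% of all windows. A match is a run of letters and no evidence of binding.

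Early endosome Rabs had the lowest median of the 7 Rab groups. All 8 measured members were below 0, against 82 of all 109 members, and their median was -0.75. At least 2-fold lower were 3 of the 8, against 7.25% of all genes and 12.0% of those whose mean reached the floor. Rab5b, a GTPase that drives fusion of early endosomes, read 6.26 in EWS-OCT4A-GFP cells and 7.57 in GFP control cells, 2.48-fold lower. Its paralogs differed less: Rab5a read 8.15 in EWS-OCT4A-GFP cells and 8.73 in GFP control cells, and Rab5c read 7.04 in EWS-OCT4A-GFP and 7.12 in GFP control cells. Differences within the Rab5 group therefore ran from -1.31 to -0.07.

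Rab22a, which acts between early and recycling endosomes, read 6.31 in EWS-OCT4A-GFP cells and 7.59 in GFP control cells, 2.43-fold lower. Its close relative Rab31 read 6.31 in EWS-OCT4A-GFP and 7.22 in GFP control cells and stood just outside the 2-fold size with a difference of -0.91. Rab20, known from phagosome maturation, read 3.86 in EWS-OCT4A-GFP cells and 6.04 in GFP control cells, 4.53-fold lower. The EWS-OCT4A-GFP value of Rab20 lay under the floor, and with it set to the floor the difference was -1.94. A second probe set of Rab20 read 3.74 in EWS-OCT4A-GFP and 4.05 in GFP control cells, both under the floor, so the 2 probe sets of this gene differ in size of difference. Rab21 (-0.54) and Rab24 (-0.28) were within 2-fold.

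**Figure D2:**
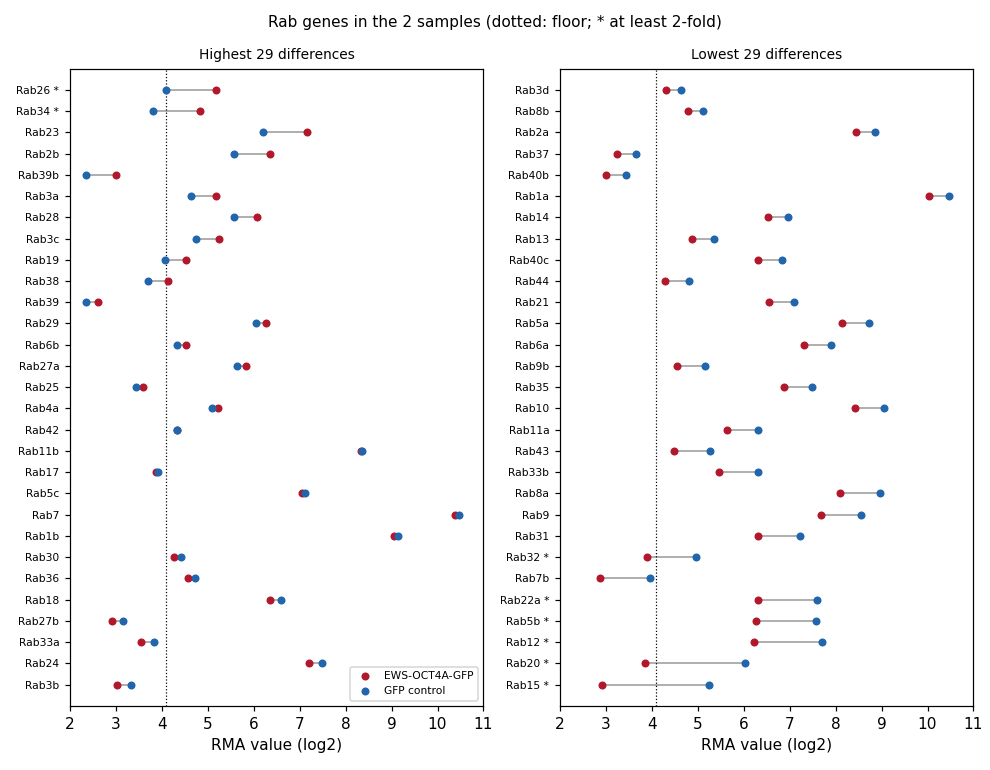
Values of the 58 Rab genes in the EWS-OCT4A-GFP sample (red) and the GFP control (blue) on the log2 scale (x axis), sorted by difference, with a line joining the values of each gene. The dotted line is the floor of 4.10 and stars mark the 8 genes called, from Rab26 (1.10) to Rab15 (-2.32).

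Recycling and epithelial Rabs were within 2-fold in all but 1 of 8 cases, where 7.25% of all genes were at least 2-fold lower. Rab15, a Rab of endosome recycling, read 2.91 in EWS-OCT4A-GFP cells and 5.24 in GFP control cells, the lowest difference of any Rab gene at -2.32. Since the EWS-OCT4A-GFP value lies under the floor, the size is uncertain, and with it set to the floor the difference was -1.14. Rab11a, which directs recycling endosomes to the cell surface, read 5.64 in EWS-OCT4A-GFP cells and 6.31 in GFP control cells. Its paralog Rab11b was level at 8.34 in EWS-OCT4A-GFP and 8.35 in GFP control cells. The epithelial relatives Rab25 (3.60 in EWS-OCT4A-GFP and 3.45 in GFP control cells) and Rab17 (3.87 in EWS-OCT4A-GFP and 3.91 in GFP control cells) read under the floor in both samples, so nothing can be said of their change. Rab35 (-0.60), Rab14 (-0.44) and Rab4a (0.13) made up the rest of the group.

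All 4 exocytic Rabs of the Rab8 branch were below 0 and within 2-fold. Over all genes, 46.1% were below 0 and 7.25% at least 2-fold lower. Rab8a, which acts in transport from the Golgi to the surface and to cilia, read 8.10 in EWS-OCT4A-GFP cells and 8.96 in GFP control cells. Rab10, which acts in basolateral and insulin-regulated delivery, read 8.42 in EWS-OCT4A-GFP and 9.05 in GFP control cells. Rab13, a Rab of tight junctions, had a difference of -0.46 and Rab8b one of -0.33. The group's median was -0.55.

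Rabs of late endosomes and lysosomes had a median of -0.34 and held members in both directions. Rab12, which acts in degradation of the transferrin receptor, read 6.23 in EWS-OCT4A-GFP cells and 7.70 in GFP control cells, 2.77-fold lower. Rab32, known from lysosome-related organelles, read 3.89 in EWS-OCT4A-GFP and 4.97 in GFP control cells, a difference of -1.08 that was the closest to the 2-fold size among the lower Rab genes and became -0.87 with the lower value set to the floor. Rab7b had a difference of -1.09 but read 2.88 in EWS-OCT4A-GFP and 3.96 in GFP control cells, both under the floor, and was not called. Rab7, the general Rab of late endosomes, was level at 10.38 in EWS-OCT4A-GFP and 10.46 in GFP control cells, and Rab9, which acts in return of receptors to the Golgi, read 7.68 in EWS-OCT4A-GFP and 8.55 in GFP control cells. Rab34, which acts in ciliogenesis and lysosome positioning, read 4.82 in EWS-OCT4A-GFP cells and 3.81 in GFP control cells, 2.01-fold higher. That call rests on a control value under the floor, and with the floor in its place the difference was 0.72. Rab9b (-0.60), Rab29 (0.23) and Rab38 (0.44) were within 2-fold.

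Of the Rabs of the ER and Golgi, 0 of 14 were at least 2-fold apart, and the median was -0.20. Rab1a and Rab1b, which act in transport from the ER to the Golgi, had differences of -0.43 and -0.08. Rab1a read 10.04 in EWS-OCT4A-GFP cells and 10.47 in GFP control cells, and Rab1b 9.05 in EWS-OCT4A-GFP cells and 9.13 in GFP control cells. Rab6a, a Rab of the Golgi, was at -0.60, and Rab2b at 0.79 with 6.36 in EWS-OCT4A-GFP cells and 5.57 in GFP control cells, whereas its paralog Rab2a was at -0.42. Rab33b (-0.85) was the lowest of the group, and Rab43 followed at -0.78. Rab39, Rab39b and Rab33a read under the floor in both samples, and Rab18, Rab30, Rab36 and Rab6b lay between -0.25 and 0.20.

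Of 9 Rabs of regulated secretion, 1 was at least 2-fold higher, against 5.68% of all genes. Rab26, a Rab of secretory granules, read 5.19 in EWS-OCT4A-GFP cells and 4.08 in GFP control cells, 2.15-fold higher. An antisense gene, Rab26os, is also annotated on the array, and the control value was just under the floor. Rab3a and Rab3c, Rabs of synaptic vesicles, had differences of 0.55 and 0.50, while Rab44 (-0.52) and Rab3d (-0.31) were below 0. Rab37, Rab3b and Rab27b read under the floor in both samples. Rab27a, which tethers secretory lysosomes and exosome-forming endosomes, read 5.82 in EWS-OCT4A-GFP and 5.64 in GFP control cells, a difference of 0.18. Among the 5 remaining Rabs, Rab23, a negative regulator of hedgehog signalling, read 7.15 in EWS-OCT4A-GFP cells and 6.21 in GFP control cells, just outside the 2-fold size at 0.94. Rab28 and Rab19 had differences of 0.50 and 0.46, and Rab40c one of -0.51. Rab40b read under the floor in both samples.

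Among sorting nexins the larger negative differences lay with members that have a BAR domain. Of 12 SNX-BAR genes, 5 were at least 2-fold lower and their median was -0.95. Of the 18 others 1 was, and their median was -0.41. The probe sets of the SNX-BAR genes also had higher values, with a median of 7.13 over both samples against 5.75 for the others. This is no comparison of transcript amounts, but RMA compresses differences of low values. Among genes with a mean of at least 6, of which 13.8% on the array were at least 2-fold lower, 4 of 10 SNX-BAR genes and 0 of 8 others were, with medians of -0.95 and -0.38. The split by domain is a description of these values and has no test.

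Snx9, which binds dynamin and acts in clathrin-mediated endocytosis, read 6.32 in EWS-OCT4A-GFP cells and 8.80 in GFP control cells, 5.61-fold lower. Snx33, of the same subfamily, read 4.29 in EWS-OCT4A-GFP cells and 6.30 in GFP control cells, 4.04-fold lower. Snx18, the remaining relative, differed the other way with 7.66 in EWS-OCT4A-GFP cells and 6.74 in GFP control cells, a difference of 0.92. It was the highest difference of any Snx gene, and it stands just outside the 2-fold size. The 3 genes of the Snx9 subfamily thus spanned from -2.49 to 0.92.

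The SNX-BAR genes linked to retromer, the complex that returns receptors from endosomes to the Golgi, were likewise uneven. Snx1 read 5.82 in EWS-OCT4A-GFP cells and 8.23 in GFP control cells, 5.30-fold lower. Snx2, its paralog, read 7.71 in EWS-OCT4A-GFP and 8.62 in GFP control cells with a difference of -0.92. Their partners were closer to level, with Snx6 at -0.28, Snx5 at 0.39 and Snx32 at 0.37. The core trimer of retromer did not differ by 2-fold: Vps35 read 9.33 in EWS-OCT4A-GFP cells and 9.51 in GFP control cells, Vps26a was at 0.22, Vps26b at 0.24 and Vps29 at 0.33. Ccdc93, a partner of retriever, was at -0.35.

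Snx4, Snx7 and Snx30 encode a further set, in which Snx4 pairs with either of the others in recycling and autophagy. Snx30 read 6.20 in EWS-OCT4A-GFP cells and 7.93 in GFP control cells, 3.33-fold lower. Snx7 read 5.48 in EWS-OCT4A-GFP and 7.18 in GFP control cells, 3.25-fold lower. Snx4 read 8.24 in EWS-OCT4A-GFP and 9.23 in GFP control cells and stood just outside the 2-fold size at -0.98. All 3 read lower in EWS-OCT4A-GFP cells, by differences from -1.74 to -0.98. Snx8 (-0.23) completed the SNX-BAR genes.

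**Figure D3:**
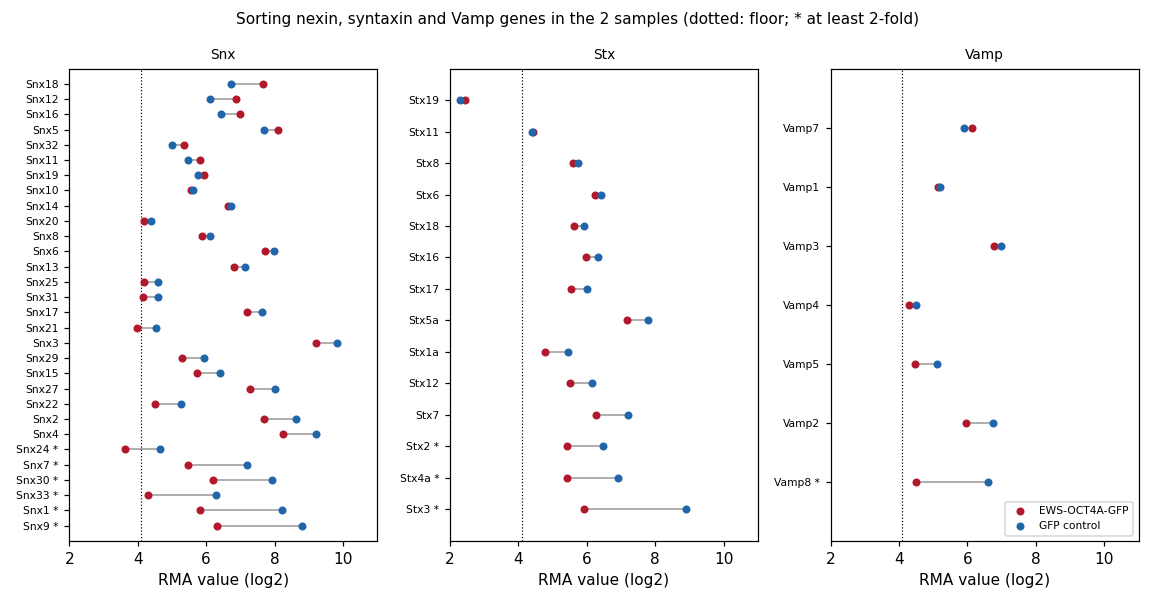
Values of the 30 Snx, 14 Stx and 7 Vamp genes in the EWS-OCT4A-GFP sample (red) and the GFP control (blue) on the log2 scale (x axis), sorted by difference, with a line joining the values of each gene. The dotted line is the floor of 4.10 and stars mark genes called: Snx9, Snx1, Snx33, Snx30, Snx7, Snx24, Stx3, Stx4a, Stx2 and Vamp8, all with the red point to the left.

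Sorting nexins with little besides the PX domain had a median of -0.18. Snx24 read 3.64 in EWS-OCT4A-GFP cells and 4.65 in GFP control cells, only just inside the 2-fold size at -1.02, and with the lower value set to the floor the difference was -0.56. Snx3, which acts with retromer in the recycling of the Wnt carrier Wntless, read 9.23 in EWS-OCT4A-GFP cells and 9.83 in GFP control cells. Snx12 (0.78) and Snx16 (0.56) were above 0, Snx11 was at 0.34, and Snx22 (-0.77), Snx21 (-0.53), Snx20 (-0.18) and Snx10 (-0.06) were below 0. The 3 members with a FERM-like domain were all below 0: Snx27, which links retromer to PDZ-binding cargo, was at -0.74, Snx17, which recycles LRP1 and integrins, at -0.44 and Snx31 at -0.42. Members with an RGS-type domain lay between -0.40 (Snx25) and 0.19 (Snx19). Snx15 and Snx29 were at -0.68 and -0.64.

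The 3 syntaxins that were at least 2-fold lower all belong to the plasma membrane group, which had 6 measured genes. Of all genes 7.25% were lower by that size. Stx3, the apical syntaxin of epithelia, read 5.93 in EWS-OCT4A-GFP cells and 8.90 in GFP control cells. It was 7.82-fold lower, the largest negative difference among the 109 members. Stx4a, the basolateral syntaxin, read 5.41 in EWS-OCT4A-GFP cells and 6.92 in GFP control cells, 2.86-fold lower. Stx2, which also acts at the plasma membrane, read 5.43 in EWS-OCT4A-GFP and 6.46 in GFP control cells, 2.05-fold lower and the closest inside the 2-fold size at -1.04. Stx1a, the neuronal form, was within 2-fold at -0.65, Stx11 was level at 4.42 in EWS-OCT4A-GFP and 4.40 in GFP control cells, and Stx19 read under the floor in both samples.

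The 8 syntaxins of endosomes, ER and Golgi were all below 0 and within 2-fold, with a median of -0.41. Over all genes, 46.1% were below 0 and 7.25% at least 2-fold lower. Stx7, which acts in fusion of late endosomes, read 6.27 in EWS-OCT4A-GFP cells and 7.20 in GFP control cells, just outside the 2-fold size at -0.93. Stx5a, the syntaxin of transport from the ER to the Golgi, read 7.18 in EWS-OCT4A-GFP and 7.80 in GFP control cells. Stx12 was at -0.66, Stx17, which acts in fusion of autophagosomes with lysosomes, at -0.46, and Stx16 at -0.35. Stx18, Stx6 and Stx8 lay between -0.27 and -0.13.

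Vamp8 was the 1 Vamp gene past 2-fold. Vamp8, also called endobrevin, acts in late endosome fusion and in exocytosis of secretory granules, and read 4.49 in EWS-OCT4A-GFP cells and 6.59 in GFP control cells. It was 4.31-fold lower. Vamp2, which drives exocytosis of synaptic vesicles, read 5.97 in EWS-OCT4A-GFP cells and 6.74 in GFP control cells and was the closest outside the 2-fold size at -0.77. Vamp3, which acts in exocytosis of recycling endosomes, read 6.78 in EWS-OCT4A-GFP cells and 6.99 in GFP control cells. Vamp7, which acts in fusion of late endosomes and lysosomes with the surface, was the 1 member above 0, with 6.14 in EWS-OCT4A-GFP cells and 5.90 in GFP control cells. Vamp5 (-0.63), Vamp4 (-0.22) and Vamp1 (-0.06) were within 2-fold.

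**Figure D4:**
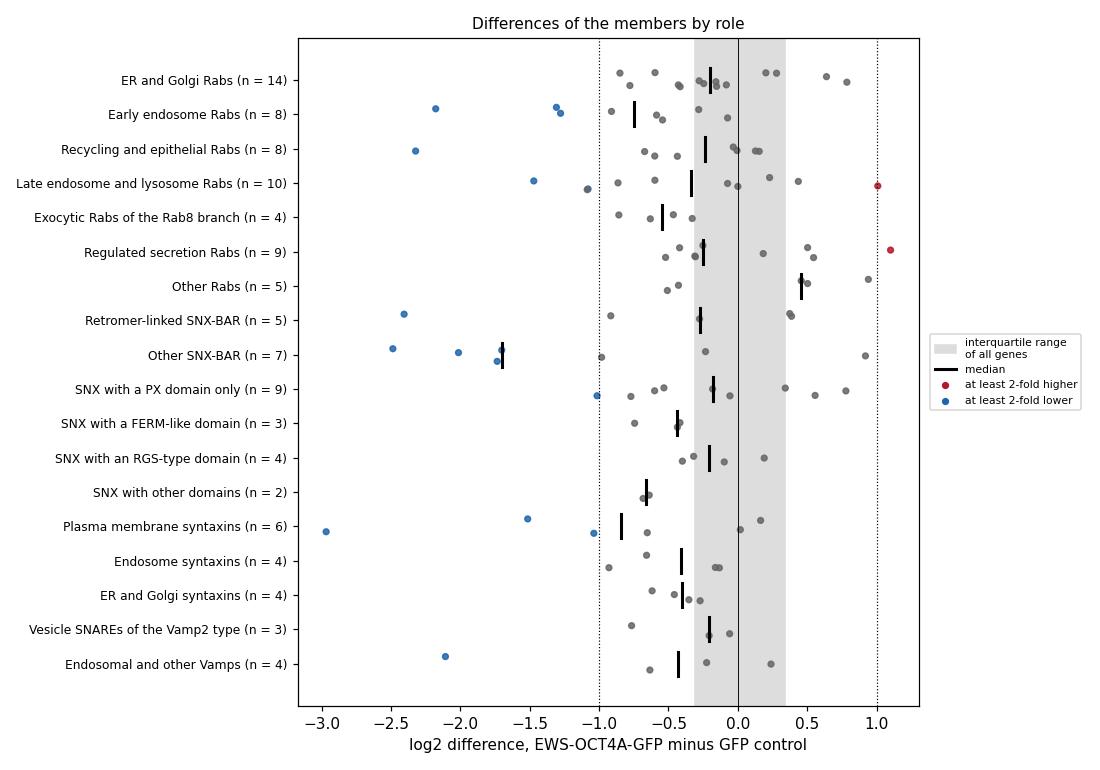
Differences of the members by role, EWS-OCT4A-GFP minus GFP control in log2 units (x axis), with 1 point per gene and a black bar at each group's median. The lowest group medians are those of the other SNX-BAR genes (-1.70), the plasma membrane syntaxins (-0.85) and the early endosome Rabs (-0.75), and the grey band is the interquartile range of all genes (-0.31 to 0.34).

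Proteins that act with the members were examined in 8 lists drawn up from general knowledge, of whose 196 entries 177 had a probe set of their own under the listed symbol. Their counts are to be read against the 7.25% of all genes that were at least 2-fold lower and the 12.0% of those with a mean at or above the floor, or 5.68% and 9.16% for higher genes. Rab exchange factors and GTPase-activating proteins, which switch Rabs on and off, were lower by at least 2-fold in 8 of 39 cases and higher in 1, with a median of -0.36. Tbc1d4, a GTPase-activating protein of the Rab8 and Rab10 branch, read 4.00 in EWS-OCT4A-GFP cells and 7.12 in GFP control cells, a difference of -3.12. Its EWS-OCT4A-GFP value lay just under the floor, and with the floor in its place the difference was -3.02. Dennd4a (-1.86) and Dennd4c (-1.69), exchange factors of Rab10, followed. Rabgef1, an exchange factor of Rab5, was at -1.49, and Rin3, which acts on Rab5 and Rab31, at -1.61.

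Rab effectors passed the 2-fold size downward in 6 of 34 cases and upward in 2, and their median was -0.26. Rab11fip4, an effector of Rab11, read 4.14 in EWS-OCT4A-GFP cells and 6.89 in GFP control cells. Myo5b, the motor that carries Rab11 endosomes, read 3.79 in EWS-OCT4A-GFP and 5.19 in GFP control cells, and Rims2, a Rab3 effector of synapses, read 4.76 in EWS-OCT4A-GFP and 2.96 in GFP control cells. The control value of Rims2 lay under the floor, and with the floor in its place the difference was 0.67, under 2-fold. The EWS-OCT4A-GFP value of Myo5b also lay under the floor, and with the floor in its place the Myo5b difference was -1.10. Eea1, the tether recruited by Rab5, read 5.84 in EWS-OCT4A-GFP cells and 7.08 in GFP control cells. Of the tethering subunits 3 of 19 were at least 2-fold lower, and Vps8 (-1.54) and Tgfbrap1 (-1.38), the subunits particular to the early endosome complex CORVET, had the largest differences. Their counterparts in the late endosome complex HOPS, Vps41 and Vps39, were at -0.01 and 0.21. Exoc5, of the exocyst, was at -1.12. The calls of Vps8 and Exoc5 depend on the probe set: a second probe set of Vps8 read 5.12 in both samples, and the mean of both probe sets gave -0.77 for Vps8 and -0.77 for Exoc5, which left Tgfbrap1 as the 1 tethering subunit past 2-fold.

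The list of SNAREs outside the syntaxin and Vamp symbols differed little, with 1 of 18 genes at least 2-fold lower and a median of -0.06. The exception was Stxbp5, with 5.29 in EWS-OCT4A-GFP cells and 7.05 in GFP control cells. It encodes tomosyn, an inhibitor of SNARE assembly, which the list counted with the SNAREs. The list also held Stxbp5l, which read under the floor in both samples. Snap23, the widespread partner of Stx3 and Stx4a, read 7.89 in EWS-OCT4A-GFP cells and 7.60 in GFP control cells. Snap29 was at -0.81 and Use1 at 0.74. Among 18 SNARE regulators 1 passed the 2-fold size downward and 1 upward, with a median of -0.04. Stxbp2, which encodes the Sec1/Munc18 protein that binds Stx3, was the lower one with 6.12 in EWS-OCT4A-GFP cells and 7.86 in GFP control cells. Stxbp4 was the higher one at 1.02, and Stxbp3, which binds Stx4a, was at -0.92.

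Coat and adaptor proteins had a median of -0.47, with 8 of 37 at least 2-fold lower and 0 higher. Ap1s3 (-1.86) and Ap2a2 (-1.51) are subunits of clathrin adaptors, and Copa, of the COPI coat, was at -1.12. The clathrin heavy chain gene Cltc read 9.41 in EWS-OCT4A-GFP cells and 10.51 in GFP control cells. By contrast, the 7 measured genes of Rab prenylation and retrieval had a median of 0.17. The 5 measured of 12 listed for the retromer and retriever core had one of 0.22, with 0 members past 2-fold in either list. Those 5 were the genes of the retromer trimer and Ccdc93. The listed subunits particular to retriever had no probe set of their own, so the value does not describe retriever. Rabggtb, a subunit of the transferase that attaches the lipid anchor to Rabs, was at 0.90, Rabggta at 0.51 and Rabif at 0.35.

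**Figure D5:**
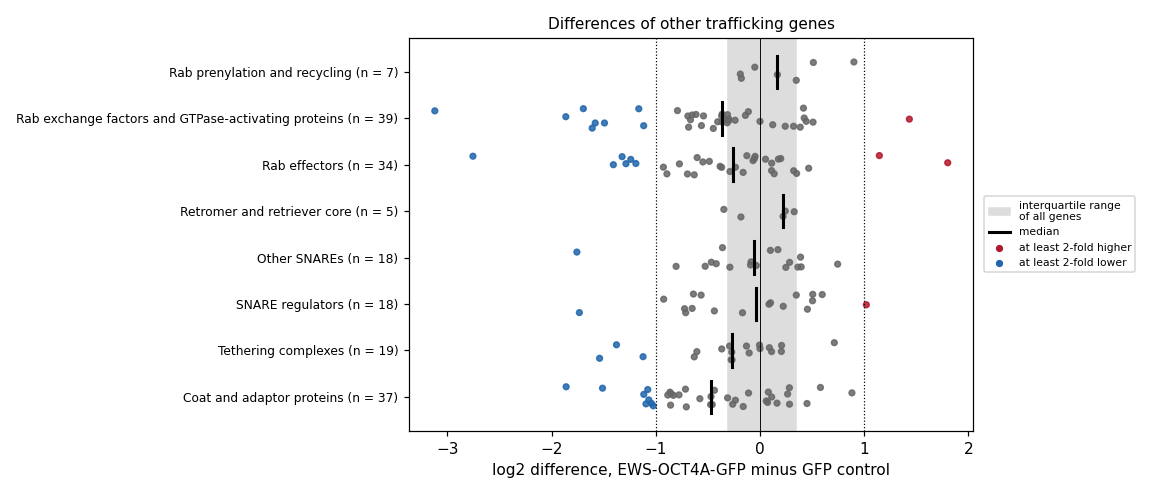
Differences of other trafficking genes by list, EWS-OCT4A-GFP minus GFP control in log2 units (x axis), with 1 point per gene and a black bar at each list's median. Medians run from -0.47 for coat and adaptor proteins to 0.22 for the 5 measured genes of the retromer and retriever list, which hold no subunit particular to retriever. The lowest point is Tbc1d4 at -3.12.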

How the data were processed

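Transcripts were measured on an Affymetrix array in 2 samples, 1 per line. Per the submitters' processing notes, the deposited values are RMA summaries from Affymetrix Expression Console 1.1. RMA corrects background, quantile-normalizes arrays and summarises each probe set, and it compresses differences of low values. The authors' deposited values were taken as log2, since they run from 0.618 to 13.0, but the table states no log base. The design text speaks of duplicates, whereas each line has 1 column, and the sources used here do not say whether a column is a mean. Precision is limited by the number of arrays.

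Of 33793 probe sets, 23521 had 1 symbol in the platform annotation, 1814 several and 8458 none in that table. All 109 members matched RefSeq (GRCm38.p6) by gene ID with 0 changed symbols, and promoters are RefSeq's. Every called member, the 3 with the highest mean in each family, those next to the 2-fold size and up to 3 genes at or above the floor with the largest difference per other list were named. Further genes were named after their values were seen. Motifs, the BAR split and the comparison of paralogs were chosen likewise. Members and lists were chosen with earlier results of these data known. The calling procedure was tested on simulated data. Alternatives covered the threshold, floor, normalization and probe set rule. Python 3.11.15, numpy 2.4.6, pandas 2.3.3 and statsmodels 0.14.6 were used.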

Additional observations from a re-analysis of the deposited data

How the results depend on the processing

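No paired analysis was possible because there is 1 sample per group, and no replicate could be left out. Median differences of the 4 families stayed below 0 under each normalization, under averaged probe sets and with low values set to the floor. That last setting, chosen after seeing the data, moved the Rab median to -0.16, the late endosome Rab median to -0.037 and that of regulated secretion Rabs to 0.00. It left 14 lower members and 1 higher. At 1.5-fold, 17 Rab, 13 Snx, 7 Stx and 3 Vamp genes were lower, and 4 Rab and 2 Snx genes higher. Over all members 40 were lower at 1.5-fold, 16 at 2-fold and 9 at 3-fold. The shares of all genes at these sizes were 12.6%, 7.25% and 3.54%. At 3-fold, 2 Rab, 5 Snx, 1 Stx and 1 Vamp genes were lower and 0 members higher. The count of 2 higher Rab genes became 1 under median, quantile and loess normalization and with low values set to the floor, and 0 with the floor at the 75th percentile or at 6. Loess moved the medians of early endosome Rabs to -0.85, late endosome Rabs to -0.44, coats and adaptors to -0.58 and the retromer core to 0.11. Averaged probe sets gave -0.13 for tethering complexes, with 1 lower subunit in place of 3, and -1.24 for Rab20. Of the 31 calls in the other lists, 3 were lost with averaged probe sets (Vps8, Exoc5 and Dennd2a) and 1 with low values set to the floor (Rims2). Of the counts for role groups and other lists, 19 moved by over 1.5 times at 1.5-fold and 8 at 3-fold. The normalizations moved the median of all genes by at most 0.03, and no sign of a called member turned in any setting. The cause of these shifts was not tested, apart from the counts that a stricter size or floor lowers by construction. Signal over background is unknown, which limits what can be said near the floor.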

Other observations

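In the RefSeq gene order (GRCm38.p6), 3 pairs of members are next to each other among protein-coding genes. Vamp5 and Vamp8 on chromosome 6 had differences of -0.63 and -2.11. Snx22 and Snx1 on chromosome 9 had differences of -0.77 and -2.41, and Snx2 and Snx24 on chromosome 18 had differences of -0.92 and -1.02. All 6 genes read lower in the EWS-OCT4A-GFP sample, as did 82 of the 109 members. Probe sets that carry several symbols were not members. The one shared by Rab4b and Mia read 6.07 in EWS-OCT4A-GFP cells and 5.43 in GFP control cells, and which of the genes it reports is unknown.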
